A study of Mus musculus with 176 samples.

Results

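Transcripts of 9 genes were followed in single CD4 T cells: Fos, Fosb and Fosl2, which encode Fos-type subunits of the transcription factor AP-1, Jun, Junb and Jund, which encode its Jun-type subunits, Batf and Batf3, which encode short AP-1 factors without a transactivation domain, and Irf4, which encodes an interferon regulatory factor. The genes were chosen by name, with earlier results of these data known, and all 9 were among the 53546 gene names of the count table. The cells came from draining lymph nodes of female C57BL/6J mice vaccinated with P6, a peptide of apolipoprotein B, first in complete and later in incomplete Freund's adjuvant, and all P6-binding cells came from 1 mouse. CD4 T cells with high CD44 and without CD62L at the surface were sorted singly by binding of P6:I-Ab tetramers in a pair of colours, MHC class II molecules loaded with the peptide, into 32 binding (P6+) and 144 non-binding (P6-) cells. Both groups had been held with dasatinib, a tyrosine kinase inhibitor that blocks signalling of the T cell receptor, before they were stained. Each cell was 1 Smart-Seq2 library, which covers whole transcripts and has no molecular identifiers.

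AP-1 is a dimer of proteins with a basic region and a leucine zipper. Jun proteins pair with themselves, with Fos proteins or with BATF, whereas Fos proteins need a Jun partner. Fos, Fosb and Jun are immediate early genes that are switched on within minutes of a signal through the MAP kinases, and Jund is present in resting cells as well. BATF with a Jun partner binds composite elements together with IRF4, which on its own holds DNA weakly, and this complex is known for its part in effector regulatory T cells, T helper 17 cells and follicular helper cells.

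The members lay on 7 chromosomes of GRCm38, and the sequences before the start of 4 of them are shown because these carried nearly all reads of the members. In the RefSeq table of 250 bases before each start, which held all 9 members, 4 members had the letters TGACG, the first part of the cAMP response element, on either strand, against 17.8% of 32851 promoters. All 250 bases were searched for each member, also where they lie in an exon of another annotated transcript of the same gene, and such exonic bases were left out only of what is printed. The longer motif TGACNTCA, bound by Jun with ATF2, occurred before Jun alone of the members and in 7.49% of all promoters. None of the 9 windows had the AP-1 motif TGANTCA, found in 6.75% of promoters, or the full element TGACGTCA, found in 1.55%, which overlaps both TGACG and TGACNTCA. In the lines below, capitals mark TGACG, or TGACNTCA in the case of Jun, and each sequence runs 5′ to 3′ on the strand of its gene. Fos is at chr12:85473640-85473889 (plus strand), Jun at chr4:95052223-95052472 (minus), Junb at chr8:84978749-84978998 (minus) and Batf at chr12:85686470-85686668 (plus), the last ending where the annotated exon begins. Binding at these sequences was not measured.
Fos: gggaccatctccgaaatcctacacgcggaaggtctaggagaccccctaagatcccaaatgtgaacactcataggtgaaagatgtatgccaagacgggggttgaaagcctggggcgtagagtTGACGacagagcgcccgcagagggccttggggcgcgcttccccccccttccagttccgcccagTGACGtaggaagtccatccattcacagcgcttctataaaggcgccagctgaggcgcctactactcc
Jun: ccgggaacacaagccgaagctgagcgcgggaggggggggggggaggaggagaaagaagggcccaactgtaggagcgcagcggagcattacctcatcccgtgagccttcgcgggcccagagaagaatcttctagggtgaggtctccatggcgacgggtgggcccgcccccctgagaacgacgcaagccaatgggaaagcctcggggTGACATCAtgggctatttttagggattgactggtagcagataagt
Junb: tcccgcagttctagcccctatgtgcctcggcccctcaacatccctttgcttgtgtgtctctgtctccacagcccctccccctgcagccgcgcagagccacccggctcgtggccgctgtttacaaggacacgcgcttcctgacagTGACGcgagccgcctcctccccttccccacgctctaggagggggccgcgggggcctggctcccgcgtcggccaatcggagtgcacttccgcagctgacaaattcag
Batf: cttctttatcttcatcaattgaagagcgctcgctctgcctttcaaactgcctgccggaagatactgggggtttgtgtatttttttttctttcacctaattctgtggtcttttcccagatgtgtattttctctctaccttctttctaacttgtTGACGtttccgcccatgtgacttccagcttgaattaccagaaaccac

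The count table gave 0.956 to 3.33 M reads on genes per P6+ cell (median 1.73 M), and 0.522 to 3.40 M (median 1.5 M) in the 129 P6- cells that passed limits of 500000 reads, 2000 genes and 10% mitochondrial reads. All 32 P6+ cells passed and bore the same plate prefix in their names, which 11 passing P6- cells shared, and the P6- cells were spread over 8 prefixes. P6+ cells had a median of 4396 genes and P6- cells of 3432. The 7 T cell markers together lay between 2031 and 8432 cpm (counts scaled to a common library total) in each P6+ cell, whereas 7 P6- cells, 1 of them on the shared plate, had under 100 cpm. In P6+ cells the myeloid list reached at most 0.907 cpm and the 4 erythroid and 5 CD8 and NK cell genes were at 0, and in P6- cells 2 CD8 and NK cell genes reached 10 reads. Of 8 B cell markers, 3 reached 10 reads in a P6+ cell, and their summed level had a median of 733 cpm (0.741 to 7726) in P6+ and of 1.84 cpm (0 to 10663) in P6- cells, where 2 genes did so. In P6+ cells these were Ighm, Cd74 and Cd79b, while Ms4a1, Cd79a and H2-Ab1 were at 0 reads in P6+ cells. With P6+ cells of 1 mouse, cells were not taken as replicates and no test was made. Intervals are exact 95% Poisson or binomial intervals that cover counting error only.

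In the P6+ cells, a single Jun-type gene and Batf made up most of the members' reads. In cpm per kilobase of exon, Junb stood at 422, Batf at 272, Fos at 68.0, Jund at 28.7, Jun at 22.9 and Fosl2 at 1.88. Irf4, with 7 reads over all 32 cells, and Fosb, with 3 reads, had overlapping counting intervals at 0.118 cpm (95% interval 0.0474 to 0.243) and 0.0506 cpm (0.0104 to 0.148). Batf3 had no read in any passing cell of either group, which allows up to 0.0506 cpm in P6+ cells, the worth of 3 reads. The ranges over cells of all neighbours in this order overlapped, so the order is one of pooled reads and not of every cell.

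The order in a typical cell was different, and most members were read in a minority of cells. A cell was counted as holding a transcript from 10 reads, since 1 to 9 reads occurred widely: Fos had at least 1 read in 20 P6+ cells but 10 or more in 3. Junb reached 10 reads in 29 of 32 P6+ cells (90.6%, 95% interval 75.0 to 98.0%) and Jund in 26 (81.2%, 63.6 to 92.8%). Batf did so in 14 cells (43.8%, 26.4 to 62.3%), Jun and Fosl2 in 5 cells each (15.6%, 5.28 to 32.8%), and Fos in 3 (9.38%, 1.98 to 25%). For Fosb, Batf3 and Irf4 the count was 0 of 32, with an upper bound of 10.9%. The median cell thus had 579 cpm of Junb, 40.1 cpm of Jund and 2.64 cpm of Batf, while the medians of Fosl2 and Jun were 0.

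**Figure D1:**
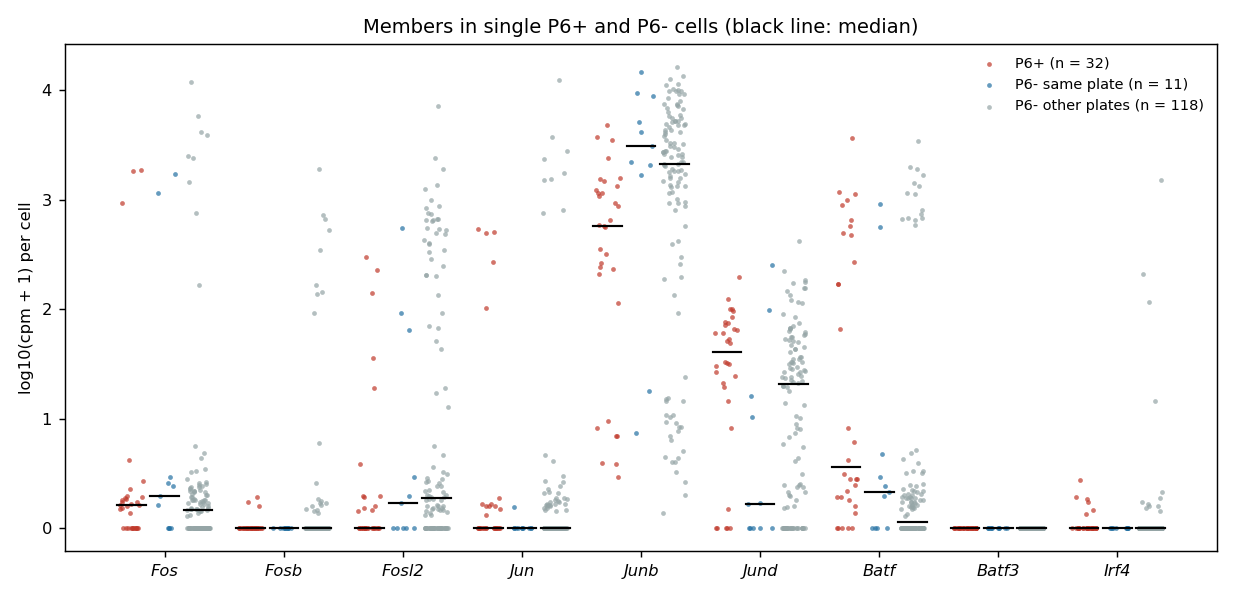
Level of each member in every passing cell, as log10(cpm + 1), in P6+ cells (red, n = 32), P6- cells of the same plate prefix (blue, n = 11) and P6- cells of the other prefixes (grey, n = 118); black lines are medians. Junb lies lower in P6+ cells (median 579 against 2203 cpm over all P6- cells), and Batf is split into cells near 0 and cells with 10 or more reads, the latter 14 of 32 in P6+ and 17 of 129 in P6-.

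P6+ cells were compared with P6- cells of all plates, which asks how cells that bind the vaccine peptide differ from other antigen-experienced CD4 T cells. Junb, the most abundant member, was lower in P6+ cells, Batf was higher, and Fosl2, Jun, Fosb and Irf4 were lower. A gene was called where the pooled cpm, with 1 added, differed at least 2-fold. Of 8 members with 1 cpm or more over both groups, 1 was called higher, against 21.1% of 11544 genes, and 5 were called lower, against 35% of these genes. The median log2 ratio was -1.64 over these members and -0.25 over all genes tested.

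The Jun-type genes went apart. Junb, whose protein is the main Jun partner of BATF in T helper 17 cells, had between 1.91 and 4798 cpm in the P6+ cells (median 579) and between 0.372 and 16362 cpm in the P6- cells (median 2203). Both ranges overlapped, but only 4 of 32 P6+ cells stood above the P6- median. Pooled, Junb was at 972 cpm (95% interval 964 to 980) in P6+ and at 3633 cpm (3625 to 3642) in P6-, 3.74-fold higher in the latter and a log2 ratio of -1.90. The share of cells with 10 reads hardly differed, at 90.6% and 88.4%, so the gap lay in the level: cells that held the transcript had a median of 659 cpm in P6+ and of 2668 cpm in P6-. Reads of Prdx2, a gene on the opposite strand that overlaps Junb, were at 162 cpm in P6+ and 161 cpm in P6-, and at 25.8 cpm, from 1 of 11 cells, in P6- cells of the shared plate. Jund, the most widely present Jun gene after Junb, showed a pooled level of 47.8 cpm (46.1 to 49.6) in P6+ and 34.9 cpm (34.1 to 35.7) in P6-, a log2 ratio of 0.44 that was not called. It was read in 81.2% of P6+ and 58.1% of P6- cells (49.1 to 66.8%), whose intervals overlapped, and the mean of log2 values over cells gave a ratio of 1.22. Jun, the founding immediate early Jun gene, had 72.9 cpm in P6+ and 191 cpm in P6- (log2 -1.38), although more P6+ cells held it (5 of 32, 15.6%) than P6- cells (9 of 129, 6.98%). A single P6- cell gave 42.6% of the P6- reads of Jun, and the mean of log2 values over cells turned the direction, to 0.48. Junos, an antisense gene that overlaps Jun, had 44 reads in all P6+ cells and 0 in P6- cells.

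The Fos-type genes were all lower in pooled level. Fosl2, which encodes the Fos protein Fra-2, was read in 5 of 32 P6+ cells, at 18.1 to 300 cpm, and in 42 of 129 P6- cells (32.6%, 24.6 to 41.4%), at 11.7 to 7265 cpm. Its pooled level was 18.2 cpm (17.1 to 19.3) against 217 cpm (215 to 219), 11.9-fold higher in P6-. Fosb was present in 9 P6- cells, at 90.3 to 1924 cpm, and in no P6+ cell, and its pooled level was 33.6 cpm in P6- (log2 -5.04, 95% interval -5.13 to -4.88, on 3 reads in P6+), and as a mean of log2 values over cells its ratio was -0.59, within 2-fold. The shares, 0 to 10.9% and 3.24 to 12.8% as intervals, overlapped, so absence from P6+ cells could not be told from a rate like that of P6- cells with 32 cells. Fos was at 160 and 256 cpm (log2 -0.68, not called), carried by 3 P6+ and 11 P6- cells, shares of 9.38% and 8.53%. The P6- cell with the highest Fos, at 12060 cpm, was 1 of the 7 cells with under 100 cpm of T cell markers, and without those 7 cells the log2 ratio of Fos was -0.41. As a mean of log2 values over cells it was 0.05. A single P6+ cell held 45.3% of the P6+ reads of Fos. Here and below, the highest cell left out of a group is the one with the most reads of the gene, which need not have the highest cpm. For Fos these cells were at 1832 cpm in P6+ and 3924 cpm in P6-, so the P6- cell of 12060 cpm stayed in. With them left out the levels were 91.1 and 202 cpm, a log2 ratio of -1.14 and past 2-fold.

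Batf was the member called higher. The study had already described Batf in most expanded P6+ cells, so this result is not independent of that description. In the 14 P6+ cells that held it, levels ran from 7.27 to 3659 cpm with a median of 534 cpm. The 17 P6- cells that held it lay between 560 and 3412 cpm with a median of 918 cpm. The P6+ excess was thus in the number of cells, 43.8% against 13.2% (7.87 to 20.3%). P6+ cells also had more genes per cell, at medians of 4396 and 3432. How many of all genes were likewise read in a larger share of P6+ cells was not counted. After each cell was thinned to 500000 reads, Batf reached 10 reads in 13 of 32 P6+ and again 17 of 129 P6- cells. Pooled Batf was 383 cpm (378 to 388) in P6+ and 162 cpm (160 to 164) in P6-, a log2 ratio of 1.24. A single P6+ cell held 41.2% of the P6+ reads of Batf. Without it the P6+ level was 236 cpm. With the cell of most Batf reads left out of each group the log2 ratio was 0.74, under the 2-fold limit. In P6- this was a cell at 1894 cpm, and the cell at 3412 cpm stayed in. Irf4, the partner of BATF at composite elements, did not follow: it reached 10 reads in 4 P6- cells, at 13.6 to 1527 cpm, and in no P6+ cell, the 14 with Batf included. A single P6- cell gave 92.3% of its reads, and with the highest cell left out of each group the log2 ratio went from -4.61 to -1.48, and as a mean of log2 values over cells it was -0.12.

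The P6- cells of single plates showed how far such pooled levels move between plates. Junb in P6+ cells was below the P6- cells of all 8 prefixes, which ran from 2266 to 5377 cpm. Fosl2 was also below all 8, at 67.6 to 571 cpm, and its share of cells, 15.6%, below their 25 to 41.7%. Batf was above all 8 in level, at 0.310 to 343 cpm, and in its share of cells, where the plates ran from 0 to 25%. Without its highest cell, at 236 cpm, the P6+ level of Batf lay inside that range. Fos, Jun and Jund lay within the range of the plates in level, with 2, 4 and 6 plates below the P6+ value. In share of cells, Jun was above all 8, at 15.6% against 0 to 12.5%. How many of all genes lay outside the range of the plates was not counted, and each plate had fewer P6- cells than there were P6+ cells. The prefix is a part of the cell names, and what it stands for beyond a plate was not used.

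**Figure D2:**
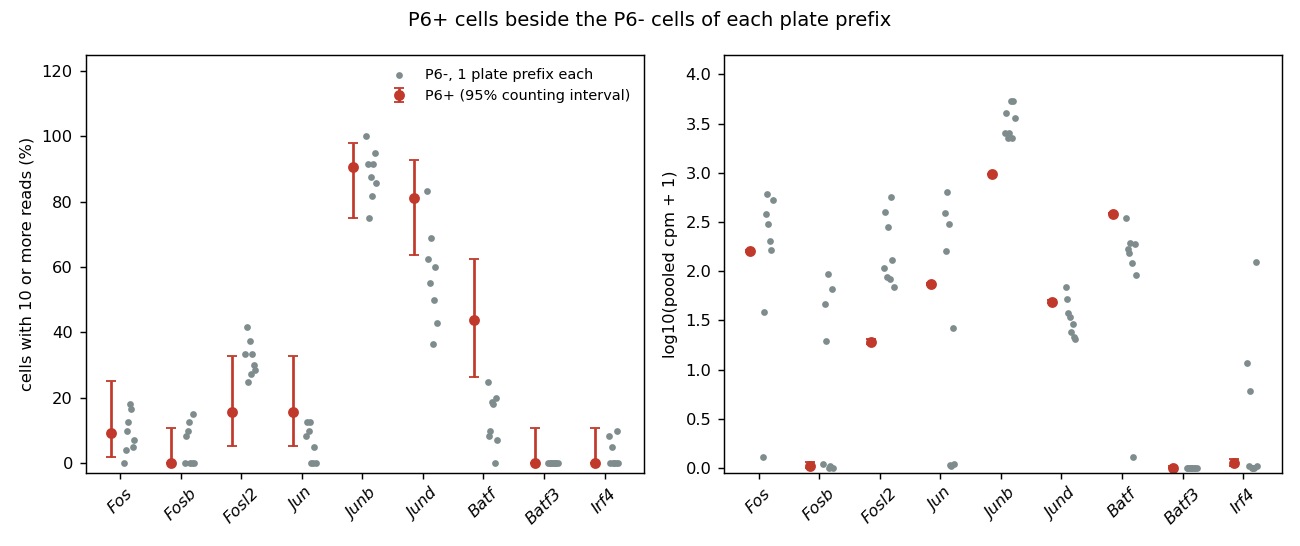
Share of cells with 10 or more reads (left, percent) and pooled level (right, log10 of cpm + 1) of each member in P6+ cells (red, with 95% counting intervals) and in the P6- cells of each of 8 plate prefixes (grey). The red point of Junb (972 cpm) lies under, and that of Batf (383 cpm) over, all 8 grey points of the right panel.

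Set against the 11 P6- cells of the same prefix, the same directions were seen for Junb, Fosl2 and Batf. The median log2 ratio of 9869 genes was 1.24 here, while 52.7% of genes were called higher and 20.5% lower. Of the 6 members with 1 cpm, 3 were called higher and 2 lower. Junb had a pooled level of 5308 cpm in these P6- cells (log2 ratio -2.45) and ranged from 6.37 to 14780 cpm with a median of 3133 cpm. Fosl2 had 81.4 cpm (log2 -2.10), of which a single cell held 83.5%, and with the highest cell of each group left out its log2 ratio was -0.45. For Batf the level was 121 cpm (log2 1.65), and 2 of 11 cells held it (18.2%, 2.28 to 51.8%), an interval that overlapped that of the P6+ cells. A single one of these P6- cells held 73.8% of the reads, without which the level was 35.1 cpm, and with the highest cell of each group left out the log2 ratio was 2.71. Jun had 1 read in these cells, against 4327 reads in P6+ cells, a log2 ratio of 6.12 (95% interval 5.72 to 6.25) that was 3.04 with 10 cpm added to each side and 1.41 as a mean of log2 values, and Jund was at 23.4 cpm (log2 1.003). Both were called higher, but the call of Jund was lost in 6 of 9 alternatives, down to a log2 ratio of 0.38 after thinning, and its ratio and that of Fos (log2 -0.91) lay below the median of all genes.

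**Figure D3:**
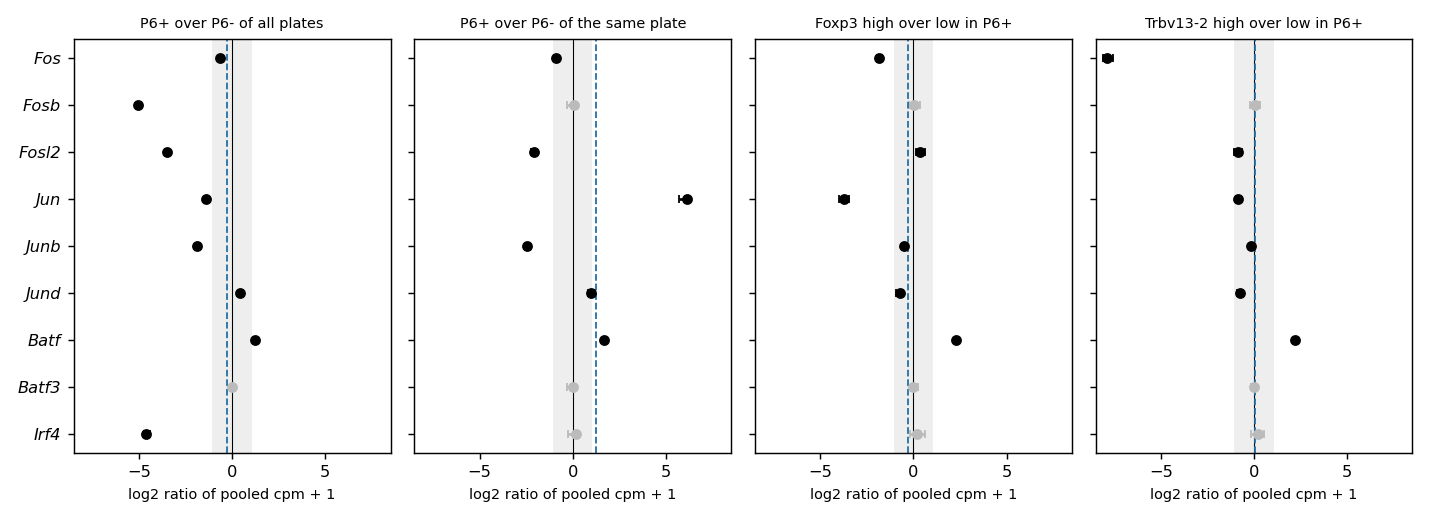
Log2 ratio of pooled cpm + 1 of each member in the 4 comparisons, with 95% counting intervals; grey points are members under 1 cpm, the shaded band is within 2-fold and the dashed line is the median of all genes tested. Batf lies right of the band in all 4 panels (1.24, 1.65, 2.28 and 2.19), and Junb left of it in the first 2 only (-1.90 and -2.45). Against P6- cells of the same prefix, the median of all genes is itself 1.24. All 4 panels use the same P6+ cells, so they are not independent, and a single cell holds 41.2% of the P6+ Batf reads. Under alternative processing, the Batf ratio falls to 0.74 against P6- cells of all plates and to 0.05 by Foxp3.

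The makeup of the member pool followed from these levels. Per length of exon, Junb gave 82.4% of the reads of the 9 members in P6- cells of all plates and 90.7% in those of the same prefix, against 51.7% in P6+ cells. Batf gave 6.00% and 3.38% in the P6- cells and 33.4% in P6+ cells. All 9 members together came to 1654 cpm in P6+ cells and 4554 cpm in P6- cells. At the level of cells, 31 of 32 P6+ cells held a Jun-type gene, 7 a Fos-type gene (21.9%, 9.28 to 40.0%) and 14 Batf, and in P6- cells these counts were 118, 55 (42.6%, 34 to 51.6%) and 17 of 129. All 7 P6+ cells with a Fos-type gene also held a Jun-type gene, and 13 of the 14 with Batf did.

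**Figure D4:**
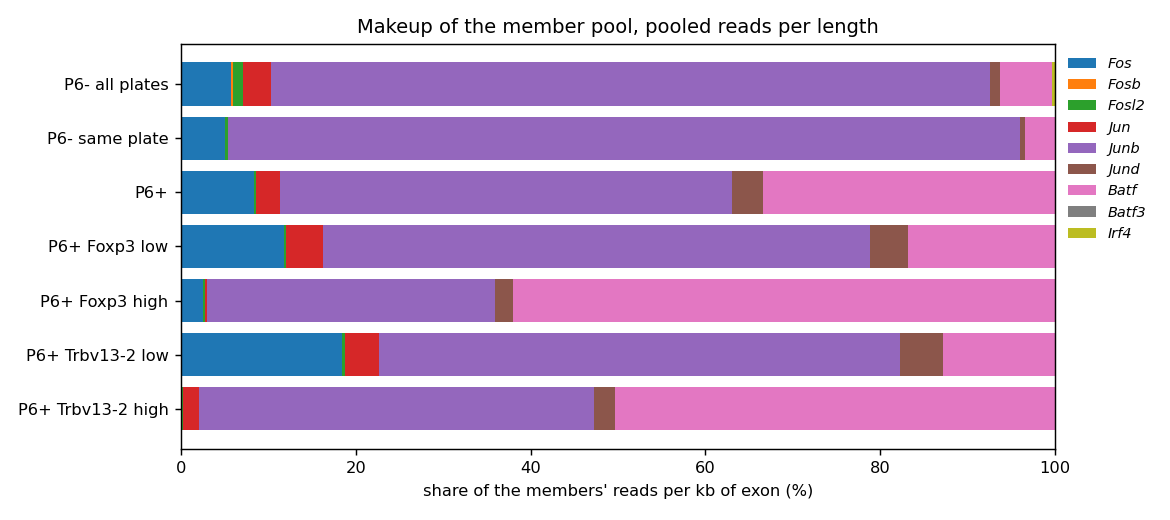
Share of each member in the reads of the 9 members per kilobase of exon (percent, horizontal bars), over the pooled cells of 7 groups. Junb takes 82.4% in P6- cells of all plates and 51.7% in P6+ cells, and Batf takes 12.8% in P6+ cells with under 10 Trbv13-2 reads and 50.3% in those with 10 or more.

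The P6+ cells were next divided by reads of Trbv13-2, the V segment of the main expanded clone of the study, into 16 cells with 10 or more and 16 with fewer. The division was clear, with 48 reads in the lowest cell inside the limit and 1 in the highest outside it. The member with the widest gap in share of cells was Batf: 11 of 16 cells with Trbv13-2 held it (68.8%, 41.3 to 89.0%) and 3 of 16 without (18.8%, 4.05 to 45.6%), intervals that overlapped slightly. Its levels ran from 0 to 3659 cpm with a median of 168 cpm in the former and from 0 to 1167 cpm with a median of 1.04 cpm in the latter. Pooled, Batf was at 622 cpm (613 to 631) against 135 cpm (131 to 139), a log2 ratio of 2.19, and at 341 cpm without its highest cell. It was the only one of 6 members called higher, against 35.3% of 9389 genes, and Fos was the only one called lower, against 31.4%. The 3 P6+ cells with Fos, at 936, 1832 and 1874 cpm, all had at most 1 Trbv13-2 read, so Fos was at 0.397 cpm with the segment and 325 cpm without it. Since 3 of 16 cells give a share of 18.8% (4.05 to 45.6%) and 0 of 16 allows up to 20.6%, the shares were not told apart at this number of cells.

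No other member was called by Trbv13-2 with all cells pooled. Junb was at 915 and 1031 cpm (log2 -0.17), with medians of 719 and 574 cpm, and its direction was not stable. The log2 ratio was 0.39 with a limit of 1 read and 1.59 as a mean of log2 values. It was 0.06 without the cells of most Junb reads, at 1478 and 3721 cpm, but cells at 3533 and 4798 cpm stayed in. For Jund the values were 35.1 and 61 cpm (log2 -0.78), present in 13 cells of each group. Jun was at 52 and 94.6 cpm, in 2 and 3 cells, and a single cell held 92% of its reads with the segment. With the highest cell of each group left out, Jun was at 4.62 and 49.6 cpm (log2 -3.17, past 2-fold). Fosl2, at 12.7 and 23.9 cpm in 2 and 3 cells, had 86.7% of its reads with the segment in a single cell, and went to 1.75 and 9.10 cpm (log2 -1.88, past 2-fold). These levels of Jun and Fosl2 are those of single cells. The B cell list moved with this division too, at a median of 1967 cpm (2.35 to 7726) with and 2.68 cpm (0.741 to 2221) without Trbv13-2, and 3 of its 8 genes reached 10 reads in each group. Its part in the Batf result was not tested. Among the 14 P6+ cells with under 100 cpm of the B cell list, 2 of 3 with and 2 of 11 without Trbv13-2 held Batf, and among the 18 with 100 cpm or more, 9 of 13 and 1 of 5. Without regard to Trbv13-2, Batf was held by 4 of the 14 and 10 of the 18 cells. In P6- cells, where the same segment belongs to other receptors, Batf was read in 4 of 26 cells with Trbv13-2 (15.4%, 4.36 to 34.9%) and 13 of 103 without (12.6%, 6.89 to 20.6%), at 159 and 163 cpm.

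Foxp3, which encodes the lineage factor of regulatory T cells, reached 10 reads in 11 P6+ cells and stayed under it in 21, with 22 reads in the lowest cell inside and 4 in the highest outside. Batf was at 853 cpm (840 to 866) with Foxp3 and at 175 cpm (171 to 180) without, a log2 ratio of 2.28. In shares of cells the gap was small, with 6 of 11 (54.5%, 23.4 to 83.3%) and 8 of 21 (38.1%, 18.1 to 61.6%). Levels ran from 0 to 3659 cpm (median 7.27) with Foxp3 and from 0 to 1167 cpm (median 1.79) without, and the ranges overlapped. The cell of 3659 cpm was the one with 22 Foxp3 reads and held 60.3% of the Batf reads of its group. Without it the level with Foxp3 was 394 cpm, and with the Foxp3 limit at 100 reads, which places that cell in the other group, the log2 ratio was 0.05. Of 6 members, 1 was called higher, against 26.9% of 9389 genes, and 2 lower, against 38.1%. These were Jun, at 6.71 and 102 cpm (log2 -3.74), present in 1 of 11 and 4 of 21 cells, and Fos, at 57.3 and 205 cpm (log2 -1.82), in 1 and 2 cells. A single cell held 99.2% of the Jun reads and another 99% of the Fos reads with Foxp3. With the cell of most reads left out of each group, Jun was at 0.0588 and 72.2 cpm (log2 -6.11). Fos was then at 0.585 and 107 cpm (log2 -6.09). In the group without Foxp3, cells with higher cpm of Jun and of Fos than those left out stayed in. Averaged as log2 values over cells, Fos gave a ratio of 0.07.

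The remaining members gave small ratios by Foxp3, at 743 and 1073 cpm for Junb (log2 -0.53, but 0.39 as a mean of log2 values), 32.4 and 54.7 cpm for Jund (log2 -0.74, and -1.02, past 2-fold, with the highest cells left out) and 21.7 and 16.6 cpm for Fosl2 (log2 0.36). A single cell held 84.3% of the Fosl2 reads with Foxp3 and another 65.5% of those without, and with these left out the levels were 3.63 and 6.03 cpm, so that the log2 ratio turned to -0.60. With a Foxp3 limit of 1 read it was 1.23, past 2-fold. The B cell list was again higher with Foxp3, at a median of 1958 cpm (2.35 to 4625) against 3.57 cpm (0.741 to 7726), with 3 and 2 of its 8 genes at 10 reads in a cell, and its part was not tested. In P6- cells, Batf was read in 3 of 19 cells with Foxp3 (15.8%, 3.38 to 39.6%) and 14 of 110 without (12.7%, 7.14 to 20.4%).

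Crossing both divisions left 2 cells with Foxp3 but not Trbv13-2, too few to set the genes apart. Batf was held by 6 of 9 cells with both, 5 of 7 with Trbv13-2 alone, 0 of 2 with Foxp3 alone and 3 of 14 with neither. In the cells with both, the 6 levels of Batf were 3659, 1132, 994, 898, 268 and 7.27 cpm, and in those with Trbv13-2 alone the 5 levels were 574, 471, 169, 168 and 64.5 cpm. The 3 cells with neither held 1167, 659 and 495 cpm, within the range of the others.

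**Figure D5:**
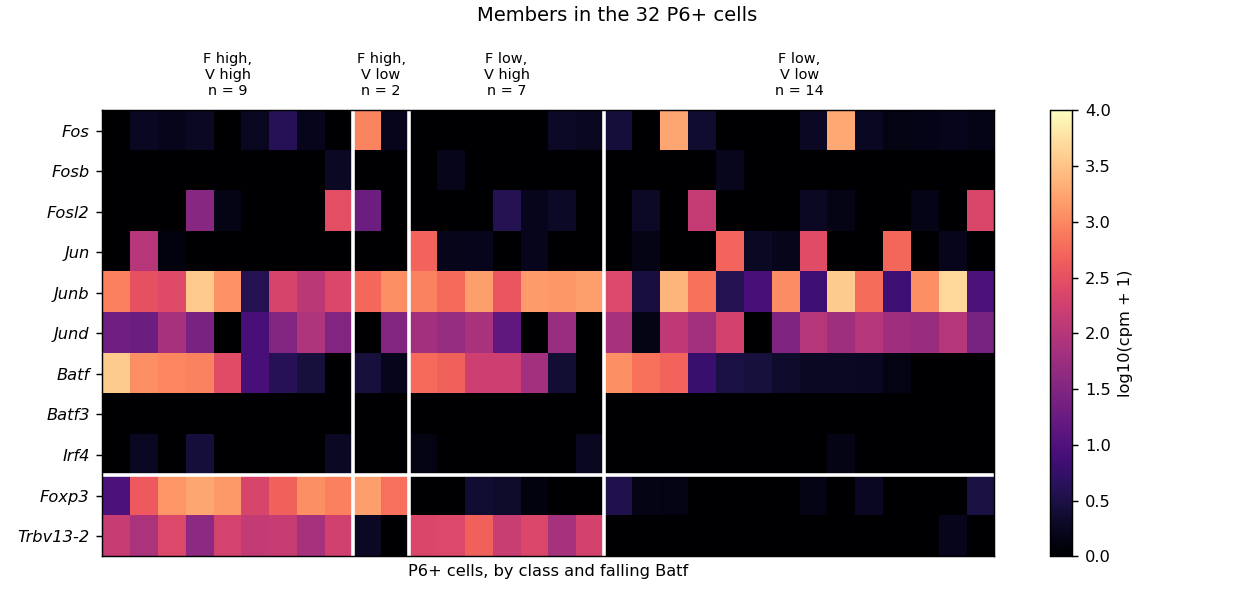
Level of each member and of the dividing genes Foxp3 and Trbv13-2 in each of the 32 P6+ cells, as log10(cpm + 1), with cells grouped by 10 or more reads (high) or fewer (low) of Foxp3 (F) and Trbv13-2 (V) and sorted by falling Batf. Batf has 10 or more reads in 6 of 9 and 5 of 7 cells with Trbv13-2 and in 3 of 14 with neither, Junb in nearly every cell, and the 3 cells with Fos are dark for Trbv13-2.

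Between pairs of members over the 32 P6+ cells, Spearman's rho of log2(cpm + 1) ran from -0.42, for Fos with Jun, to 0.28, for Junb with Irf4. Fos with Fosb had -0.36 and Fosl2 with Jun -0.34, pairs of genes with 10 reads in at most 5 cells each. The rho was -0.05 between Batf and Junb, 0.02 between Junb and Jund, 0.34 between Batf and Foxp3 and 0.36 between Batf and Trbv13-2. Over the 129 P6- cells, Junb with Jund had a rho of 0.37 and Batf with Foxp3 of 0.04. No P6+ cell held both Fos and Jun, or both Fosl2 and Jun. Fos, Fosl2 and Jun were held by only 3, 5 and 5 of the 32 cells, too few to tell this from chance. In P6- cells, 1 cell held Fos and Jun and 3 held Fosl2 and Jun. These correlations describe cells that share plates and library steps, and, by the methods, tetramer-negative cells were taken from a smaller part of the sample that gave the tetramer-positive ones.

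The genes most like each member over the P6+ cells were sought among 2299 genes with 10 reads in at least 25% of them. For Batf these were Capg, an actin capping protein, with a rho of 0.64, and Bcl2l1, which encodes the survival protein Bcl-xL, with 0.62. Junb was most like Per1 (0.55), a clock gene, and Uqcrh (0.48), a subunit of respiratory complex III, and Jund was most like Fau (0.59), which encodes a ribosomal protein, and Gm37486 (0.58). For Fos they were Prkcd (0.59), a protein kinase C, and Dusp1 (0.55), a MAP kinase phosphatase that is itself an early response gene. Fosl2 was closest to Vta1 (0.58) and Hsd11b1 (0.53), and Jun to Commd8 (0.48). With 10 reads in 3 cells for Fos and in 5 each for Fosl2 and Jun, these values rest mostly on cells with 0 to 9 reads. Fosb and Irf4 had 10 reads in no P6+ cell, and their closest genes were Ssna1 (0.49) and Bri3 (0.48), and Rara (0.59) and Trappc4 (0.51). Each is among the 2 highest of 2299 values, and what chance gives for such values was not tested. In P6- cells the rho of these pairs lay between -0.14 and 0.32, with 0.06 for both Capg and Bcl2l1.

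Genes around AP-1 were described by lists, first in P6+ against P6- cells of all plates, counting genes with 1 cpm over both groups, where 21.1% of all genes were called higher and 35% lower. Among kinases and serum response factors upstream of Fos and Jun, 6 of 14 genes were higher and 3 lower (median log2 0.72, all genes -0.25). The ERK1 gene Mapk3 was at 61.1 and 0.137 cpm, the JNK1 gene Mapk8 at 0.0337 and 22.7 cpm, and the p38 gene Mapk14 at 60.2 and 231 cpm. Mapk3 was read in 2 P6+ cells and Mapk14 in 5, and without the highest cell of each group they were at 25.3 and 0.0247 cpm and at 24.7 and 152 cpm. Of the phosphatases that shut these kinases off, 0 of 7 were higher and 6 lower (median log2 -1.86), with Dusp10 at 46.1 and 717 cpm, Dusp2 at 48.1 and 178 cpm and Dusp6 at 0.0506 and 25.1 cpm. Dusp10 was read in 3 P6+ cells, 1 of which held 83.8% of its reads, and Dusp2 in 2, of which 1 held 61.7%. Without the highest cell of each group, Dusp10 was at 7.65 and 682 cpm, Dusp2 at 18.9 and 126 cpm and Dusp6 at 0.0344 and 9.46 cpm. On the same prefix, 2 of 6 phosphatase genes were higher and 4 lower (median log2 -2.21, with 52.7% of all genes higher and 20.5% lower). Of the early response and handling genes, 0 of 20 were higher and 10 lower (median log2 -0.90). In that list the zinc finger factor Egr1 was at 0.320 and 38.7 cpm, the nuclear receptor Nr4a3 at 4.57 and 159 cpm, and the heat shock gene Hspa1a at 0.0337 and 49.7 cpm. Without the highest cell of each group they were at 0.223 and 24.8 cpm, 1.65 and 137 cpm, and 0.0177 and 34.7 cpm. On the same prefix, 2 of 17 genes of the list were higher and 6 lower. Its summed level per cell had a median of 7783 cpm (4170 to 22052) in P6+ and 11728 cpm (24.7 to 51742) in P6- cells, and 9003 cpm on the same prefix. Its part in the lower Junb, Fosl2 and Fosb was not tested.

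Of the genes linked to BATF and IRF4 in effector and regulatory T cells, 5 of 16 were higher and 0 lower (median log2 0.87), against 21.1% of all genes higher and 35% lower. Klrg1, a surface receptor of effector cells, was at 1259 and 106 cpm, Tnfrsf9, which encodes the costimulatory receptor 4-1BB, at 938 and 267 cpm, and Maf, a bZIP factor, at 112 and 41.4 cpm. Several of these genes are among those that the study used to describe the same P6+ cells, so they are not independent of that description. Against P6- cells of the same prefix, 13 of 16 were higher and 0 lower, where 52.7% of all genes were higher and 20.5% lower and the median was 1.24 for all genes and 1.75 for the list.

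By Trbv13-2 within P6+ cells, 7 of 16 of these genes were higher and 1 lower (median log2 0.77, all genes 0.07), against 35.3% of all genes higher and 31.4% lower. Prdm1, which encodes the factor Blimp-1, was at 27.2 cpm with and 0.172 cpm without the segment, and the cytokine gene Il10 at 59.7 cpm with it and at 0 reads without. Bcl6, which opposes Prdm1 in follicular helper cells, was at 0.563 and 174 cpm. Prdm1 and Il10 were each read in 3 cells with the segment and Bcl6 in 6 without it. Without the highest cell of each group, Prdm1 was at 14.2 and 0.143 cpm, Il10 at 24.5 cpm and 0 reads, and Bcl6 at 0.521 and 90.8 cpm. By Foxp3 the list gave 2 higher and 2 lower (median log2 0.51, all genes -0.29), against 26.9% of all genes higher and 38.1% lower, with Bcl6 at 0.495 and 123 cpm, Il1rl1, the receptor of interleukin 33, at 254 and 69.8 cpm, and the lineage factor Gata3 at 160 and 492 cpm. Without the highest cell of each group these were at 0.410 and 63.5 cpm, 60.8 and 23.1 cpm, and 110 and 424 cpm.

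The other families were again compared between P6+ cells and P6- cells of all plates, with 21.1% of all genes higher and 35% lower. Of 14 other bZIP factors, 3 were higher and 7 lower (median log2 -0.80), among them Atf2 at 123 and 23.0 cpm, Creb1 at 0.573 and 35 cpm and Mafk at 15.9 and 56.8 cpm. All P6+ reads of Mafk came from 1 cell, and 88.2% of those of Creb1. On the same prefix, 8 of 12 of these factors were higher and 2 lower, again with 52.7% and 20.5% of all genes. Of the 8 other IRF genes, 0 were higher and 2 lower (median log2 -0.23), among them Irf3 at 62.1 and 140 cpm, while Irf2 was at 51.1 and 101 cpm. Without the highest cell of each group, the log2 ratio of Irf3 was -0.97, under 2-fold, and that of Irf2 -1.44, past it. On the same prefix, 4 of 8 were higher and 2 lower. Of 8 NFAT and calcineurin genes, whose products cooperate with AP-1 at cytokine genes, 4 were higher and 3 lower (median log2 0.57), with the calcineurin subunit genes Ppp3ca at 142 and 28.3 cpm and Ppp3r1 at 0.135 and 29.7 cpm and the factor gene Nfatc2 at 9.34 and 57.2 cpm. A single cell held 68.4% of the P6+ reads of Nfatc2. On the same prefix the balance was the opposite, with 2 of 8 higher and 4 lower (median log2 -0.65). It rested largely on a single P6- cell, which gave nearly all P6- reads of the lower genes Nfatc2, Ppp3cb and Rcan3. Without the highest cell of each group, the log2 ratio of Nfatc2 turned from -4.74 to 1.73.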

How the data were processed

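Single-cell Smart-Seq2 libraries of 176 CD4 T cells were read with GRCm38 and Ensembl annotation. The authors mapped the reads with STAR 2.6.0a, and what they deposited are raw read counts under gene names, neither normalized nor filtered for cells, with the tetramer sign of each cell, which matched the label in all 176. Which of STAR's strand columns was taken is not given in the sources used here, so reads of overlapping opposite genes may be mixed.

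Rows of the same name (81 names) were averaged. Cells with at least 500000 reads, 2000 genes and under 10% mitochondrial reads were kept, 32 P6+ and 129 P6-. The study's further limit on the mapping rate was not applied here, so more P6- cells were kept than in the study. The counts of a group were summed and divided by its total (cpm). Ratios were taken as log2 after adding 1 cpm to each side, and 2-fold calls used genes of 1 cpm over both groups. Groups came from the labels, and the divisions by Foxp3 and Trbv13-2 at 10 reads are ranges of a readout. No doublet caller was run, since each well received 1 sorted cell. Reads per kilobase used the union of annotated exons, and promoters came from RefSeq (GRCm38.p6). The members and all lists were chosen with earlier results of these data known.

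All members were named, with the 2 most alike genes of each by Spearman's rho, and of each list up to 3 genes per comparison with the largest ratio among those of 20 cpm or more in the higher group. A few genes that this rule names are not reported here. Marker lists were used to check the cells. The pooled ratios were tested on simulated data and gave the known changes. All simulated cells of a group were drawn from a shared profile, without differences between cells. The simulation therefore does not cover ratios that rest on single cells. Other scalings (TMM of edgeR 4.0.16, median of ratios of DESeq2 1.42.0) were applied to each pair of pooled sums, with no test. All else ran in Python 3.11.15 with scipy 1.17.1, pandas 2.3.3 and numpy 2.4.6.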

Additional observations from a re-analysis of the deposited data

Results flagged for a closer look

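In the classes of 9 cells (Foxp3 and Trbv13-2 reads) and 7 cells (Trbv13-2 without Foxp3) among the P6+ cells, 9 pairs of a member and a class were looked at for a cell far from the others. By Dixon's criterion, 5 had one. The limits of this criterion are made for normally distributed values. Levels of single cells are skewed, and a gene read in 1 cell alone is always flagged, so the count cannot be set against chance. Among the 9 cells, the highest had 3659 cpm of Batf (next cell 1132 cpm), 3533 cpm of Junb (next 1237), 300.2 cpm of Fosl2 (next 35.1) and 102 cpm of Jun (next 0.317). Among the 7 cells, the highest had 493.2 cpm of Jun (next 0.655). In the 9 cells, these 4 highest values came from different cells.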

How the results depend on the processing

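With a single pooled value per group, no paired analysis was possible because the result comes from no test and cells carry no replicate number shared between groups. For P6+ against P6- cells of all plates, the number of members called higher went from 1 to 2 with means of log2 values over cells and to 0 with the highest cell of each gene left out, and the number called lower from 5 to 2 with means of log2 values, where Fosl2 and Junb were left, and to 6, Fos added, with the highest cells left out. For P6- cells of the same prefix, the number called lower went from 2 to 1 with the highest cells left out. By Foxp3, the number higher was 2 with a limit of 1 read and 0 with 100 reads, and the number lower went from 2 to 1 with means of log2 values and with a limit of 1 read, and to 3, Jund added, with the highest cells left out. By Trbv13-2, the number higher was 2 with means of log2 values, and the number lower was 2 with means of cpm or a limit of 1 read and 3 with the highest cells left out. Among members past 2-fold, direction was turned by means of log2 values over cells for Jun against P6- cells of all plates (0.48) and for Fos by Foxp3 (0.065). Junb against P6- cells stayed between -2.54 and -1.62 under all alternatives of both comparisons, and Batf stayed positive in all 4 comparisons, from 0.05 to 3.49. These comparisons share the P6+ cells and are not independent. Without a lower limit of 1 cpm, the share of all genes past 2-fold was 10.4% higher and 16% lower against P6- cells of all plates, 28% and 11.6% against those of the same prefix, 15.5% and 21.1% by Foxp3 and 20% and 17.6% by Trbv13-2. For Jund, called higher against P6- cells of the same prefix, the log2 ratio was between 0.38 and 2.43. The alternative without the P6- cells of under 100 cpm of T cell markers was chosen after seeing the data, as were the values of other lists' genes without their highest cells, and moved no count by more than 1.5 times. The number of cells limits the low members: 0 of 32 P6+ cells with 10 reads of Fosb or Irf4 allows a share of up to 10.9%.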
